A study of Homo sapiens with 6 samples.

Results

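The BCL2 family decides whether the outer membrane of the mitochondrion stays intact. Its pro-survival members (BCL2, BCL-XL and MCL1) bind and hold back the effectors BAX and BAK, which otherwise form pores and let cytochrome c out to activate caspases. The BH3-only members, among them PUMA, NOXA, BIM, BID and BIK, bind the pro-survival proteins or activate the effectors directly, and many of them are controlled by transcription after stress. BCL2 has been described as a target of GLI transcription factors, the nuclear end of Hedgehog signalling, which is the reason for following the family in cells made to express GLI2.

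The 10 genes described here were chosen by name: BCL2, BCL2L1 (encoding BCL-XL) and MCL1 for survival, BAX and BAK1 as effectors, and BBC3 (PUMA), PMAIP1 (NOXA), BCL2L11 (BIM), BID and BIK as BH3-only genes. Each has an entry among the 25442 genes of the table, and 9 of the 10 had a mean of at least 1 FPKM, the level required for the main test of 12493 genes. BCL2 itself did not. FPKM corrects the number of fragments for the length of the transcript and the size of the library. The values are read as FPKM though no unit is named, and levels are set side by side between genes on that reading only.

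The samples were 6 RNA-seq libraries of YAPC, a human pancreatic cancer (PDA) cell line that carried rtTA, the transactivator that doxycycline (Dox) switches on. In YAPC-iEV cells the vector pRetroX-Tight-Puro was empty, and in YAPC-iGLI2 cells it held GLI2. Both kinds of cell were kept in Dox for 6 days, with 3 libraries each, numbered 1 to 3 (iEV 1 to 3 and iGLI2 1 to 3), so every difference below is between 2 Dox-treated lines and none is against cells without Dox. The labels do not say whether the libraries of a group came from separate cultures, so p-values measure only the spread between these libraries. A change in RNA per cell cannot be told apart from a change in the mixture of cells.

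GLI2 had between 0.344 and 0.466 FPKM in the iEV libraries, against 94.5, 207 and 195 FPKM in iGLI2 1, 2 and 3, so iGLI2 1 reached 47.0% of the mean of the other two. These values do not separate the construct from the cells' own gene. Total FPKM was 981341 to 1082684 in iEV and 803145 to 889555 in iGLI2 libraries, of which genes named as small RNAs held 45.5% to 48.4% and 39.0% to 40.5%. Values after leaving those genes out and rescaling the libraries to 1 total are given beside results whose call or direction this changed, and beside some others. The read depth behind each value is unknown. Of the 5 epithelial markers, KRT19, EPCAM and CDH1 carried a summed level of 1025 to 1156 FPKM in iEV and 1111 to 1173 FPKM in iGLI2 libraries, while KRT8 and KRT18 are listed at 0 in all 6. EPCAM (log2 fold change 0.37, limma adjusted p = 0.00709) and CDH1 (0.37, limma adjusted p = 0.0169) were higher in iGLI2 cells, and KRT19 did not pass (-0.18, limma adjusted p = 0.195). The 6 fibroblast markers summed to 1.36 to 1.57 FPKM in iEV and 2.31 to 3.02 FPKM in iGLI2 libraries, with DCN listed at 0 and only COL1A1 above 1 FPKM, which was higher in iGLI2 cells (log2 fold change 0.61, limma adjusted p = 0.0110). The 5 leukocyte markers summed to 3.21 to 3.49 and 2.90 to 3.25 FPKM, with TYROBP at 0, and the 3 endothelial markers stayed below 1 FPKM. Their part in the results was not tested.

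GLI proteins bind DNA at sites close to GACCACCCA, a consensus recalled here as background. The stretch from 2000 bases before to 500 bases after the start of each member's locus in the table was read from GRCh37 (hg19) and searched on both strands for this motif with at most 1 mismatch. The sites found at BCL2, the gene proposed as a GLI target, and at BBC3, the member holding an exact match, are shown with 20 bases on each side. They are written 5′ to 3′ on the strand of the gene, with the matching 9 bases in capitals.
BCL2, chr18:60988461-60988509, minus strand: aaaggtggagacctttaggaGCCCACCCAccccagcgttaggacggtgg
BCL2, chr18:60987742-60987790, minus strand: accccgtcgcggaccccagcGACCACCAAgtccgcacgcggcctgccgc
BBC3, chr19:47735655-47735703, minus strand: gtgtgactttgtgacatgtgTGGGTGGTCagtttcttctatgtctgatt
BBC3, chr19:47737108-47737156, minus strand: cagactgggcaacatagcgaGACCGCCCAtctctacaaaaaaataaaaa

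The first BCL2 site differs from the consensus by A2C and the second by C8A, where the consensus base comes first and position 1 is its 5′ base. They lie at -1876 and -1157 from the start of the BCL2 locus, and at -1487 and -768 relative to the MANE Select start. No annotated gene covers either. The exact BBC3 match is read on the opposite strand (TGGGTGGTC in the gene's direction) and lies inside the BBC3 locus at +340, outside annotated exons and at -1227 relative to the MANE Select start. The other BBC3 site differs by A5G and lies at -1113 from the locus start and at -2680 relative to the MANE Select start. BAK1, BCL2L11, BID and BIK also hold matches with 1 mismatch, whereas BCL2L1, MCL1, BAX and PMAIP1 hold none in this window. Such matches are common. Of 11505 tested genes with a window, 2.03% held an exact match and 42.9% a match with at most 1 mismatch. Members with a match therefore include BCL2, whose RNA was higher, BBC3, whose RNA was lower, and genes that did not pass the test.

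BCL2 was the rarest of the 10 transcripts in both lines and the one with the largest relative difference. Its locus is on chromosome 18 from 60790579 to 60986613 on the minus strand, and its MANE Select transcript has 3 exons. BCL2 had 0.242, 0.0431 and 0.138 FPKM in iEV 1, 2 and 3, against 1.04, 0.981 and 0.942 FPKM in iGLI2 1, 2 and 3. All iGLI2 values exceeded all iEV values (as for 16.5% of the 20035 genes above 0 in at least 1 library), and they lay close together although GLI2 itself was lower in iGLI2 1. The mean went from 0.141 ± 0.0996 to 0.988 ± 0.0506 FPKM (n = 3 each, SD), which is 7.01-fold on untransformed FPKM. This ratio rests on small iEV values. It was 10.9-fold without iEV 1 and 5.20-fold without iEV 2.

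With a mean below 1 FPKM, BCL2 did not enter the main test. When the filter was dropped and 20035 genes were tested, BCL2 was higher in iGLI2 cells by 0.80 on the log2(FPKM + 1) scale (SE 0.069, limma adjusted p = 0.00193), a direction called for 7.44% of those genes. The added 1 holds the difference down, and with an added 0.1 it was 2.26 (SE 0.32, limma adjusted p = 0.00789). Over the unfiltered alternatives the adjusted p from limma lay between 0.00131 and 0.0146. The level stayed small against its relatives. BCL2 amounted to between 0.0260% and 0.152% of the BCL2L1 level in iEV libraries and between 0.661% and 0.725% in iGLI2 libraries.

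**Figure D1:**
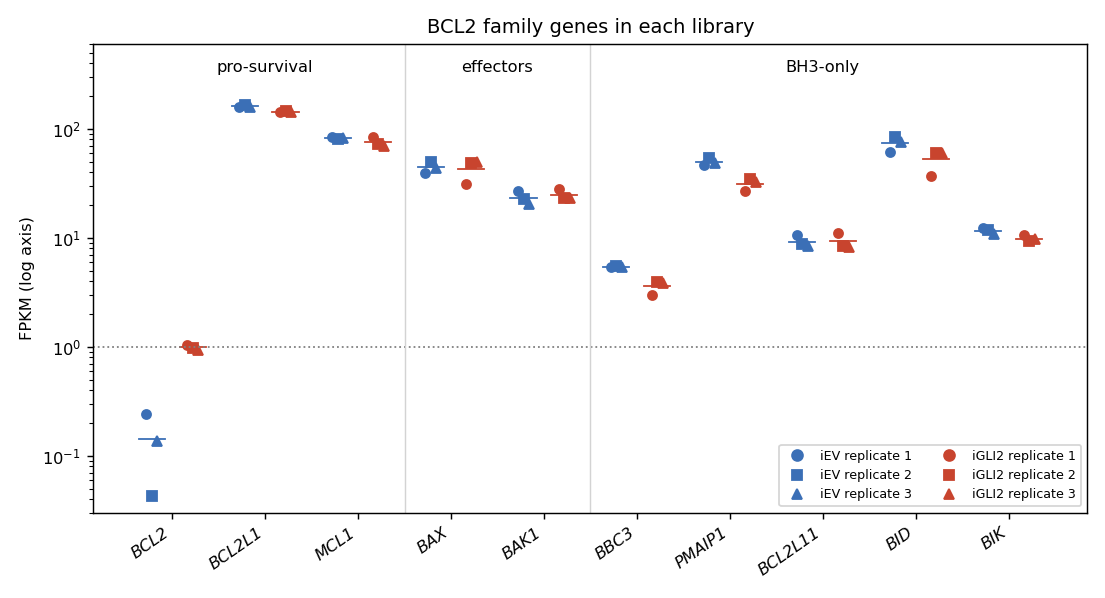
FPKM on a log axis for the 10 genes in each of the 3 iEV (blue) and 3 iGLI2 (red) libraries, with marker shapes for replicates 1 to 3, a bar at each mean and a dotted line at the 1 FPKM filter. BCL2 sits at or below 1.04 FPKM in every library, whereas BCL2L1 sits between 142 and 166 FPKM.

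BCL2L1 was the most abundant family transcript in both lines. It lies on chromosome 20 from 30252261 to 30311212 (minus strand) and encodes BCL-XL, the pro-survival protein on which many epithelial tumour cells rely. BCL2L1 had 159, 166 and 158 FPKM in iEV 1, 2 and 3, against 144, 144 and 142 FPKM in iGLI2 1, 2 and 3. The groups did not overlap, and the spread between its replicates was among the smallest of all genes tested (percentile 1.34 of the residual SD). The mean was 161 ± 4.47 in iEV and 144 ± 0.968 FPKM in iGLI2 cells (n = 3 each, SD), which gives a log2 fold change of -0.16 (SE 0.054, 95% interval -0.30 to -0.03) that did not pass the threshold (limma adjusted p = 0.0818). After rescaling without the small RNA genes the log2 fold change was -0.09. An antisense transcript, ABALON, is listed at the same locus with means of 6.71 and 5.51 FPKM, and reads of the 2 strands cannot be told apart where counting by strand is not stated.

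MCL1, listed on chromosome 1 from 150521845 to 150552214 (minus strand), encodes a short-lived pro-survival protein. The listed locus is wider than the MANE Select transcript (150547034 to 150552086). It overlaps the entry of ADAMTSL4, which had means of 0.0851 in iEV and 0.124 FPKM in iGLI2 cells. The values of MCL1 were 83.7, 80.5 and 81.5 FPKM in iEV 1, 2 and 3, against 84.8, 72.6 and 69.0 FPKM in iGLI2 1, 2 and 3. iGLI2 1 was the highest of all 6 libraries and the other 2 iGLI2 libraries the lowest, so the groups overlapped. The log2 fold change was -0.12 (SE 0.089, 95% interval -0.34 to 0.10, limma adjusted p = 0.387), and -0.04 after rescaling. Without iGLI2 1 it was -0.21 and passed the threshold (limma adjusted p = 0.0284), where the range over leaving out each library was 0.0284 to 0.691.

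The effectors showed no difference that passed the test, and BAX varied widely between libraries. BAX lies on chromosome 19 from 49458117 to 49465055 (plus strand), and had 39.3, 49.9 and 43.3 FPKM in iEV 1, 2 and 3, against 31.0, 48.2 and 49.9 FPKM in iGLI2 1, 2 and 3. The lowest value of all was that of iGLI2 1, and the other 2 iGLI2 libraries lay within or at the edge of the iEV range. Its log2 fold change was -0.06 with an interval of -0.55 to 0.43 (SE 0.20, limma adjusted p = 0.857), wide enough to hold changes in either direction. Its sign turned without iGLI2 1 (0.15), without iEV 2 (0.03) and after rescaling (0.016). BAK1, on chromosome 6 from 33540323 to 33548070 (minus strand), had 26.9, 22.5 and 20.6 FPKM in iEV 1, 2 and 3. In iGLI2 1, 2 and 3 it had 27.8, 22.96 and 23.2 FPKM, which overlaps the iEV range. Its log2 fold change was 0.08 (SE 0.12, 95% interval -0.22 to 0.38, limma adjusted p = 0.688), and 0.15 after rescaling.

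The BH3-only genes held both members that passed the main test, and both were lower in iGLI2 cells. PMAIP1 encodes NOXA, which binds chiefly MCL1 and is induced by the integrated stress response. It lies on chromosome 18 from 57567192 to 57571538 on the plus strand, on the same chromosome as BCL2. PMAIP1 had 46.1, 53.6 and 48.1 FPKM in iEV 1, 2 and 3, against 26.8, 34.7 and 32.3 FPKM in iGLI2 1, 2 and 3. Every iGLI2 library was below every iEV library. The mean fell by 36.5%, from 49.3 ± 3.89 to 31.3 ± 4.05 FPKM (n = 3 each, SD), and the log2 fold change was -0.64 (SE 0.11, 95% interval -0.92 to -0.37, limma adjusted p = 0.0124). Leaving out each library kept it between -0.72 and -0.54, but the adjusted p from limma passed the threshold neither without iEV 2 (0.0566) nor without iEV 3 (0.0527). Its lowest adjusted p over these fits was 0.00986.

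BBC3 encodes PUMA, which binds all pro-survival members. It is on chromosome 19 from 47724079 to 47736023 (minus strand). The exact match printed above lies inside this locus, and the other printed site lies upstream of its start. BBC3 had 5.34, 5.45 and 5.36 FPKM in iEV 1, 2 and 3, against 2.99, 3.91 and 3.85 FPKM in iGLI2 1, 2 and 3. The iEV values were nearly equal and all lay above the iGLI2 values. The mean fell by 33.5%, from 5.38 ± 0.0599 to 3.58 ± 0.515 FPKM (n = 3 each, SD), and the log2 fold change was -0.48 (SE 0.096, 95% interval -0.72 to -0.25, limma adjusted p = 0.0184). Leaving out single libraries gave -0.54 to -0.39, with adjusted p from limma between 0.00687 and 0.0786. The threshold was missed without iEV 1 (0.0521), 2 (0.0786) or 3 (0.0733). A microRNA entry at the same locus, MIR3191, is listed at 0 in all iEV libraries and in iGLI2 1 and at 87.5 and 92.5 FPKM in iGLI2 replicates 2 and 3. Whether its reads bear on BBC3 was not tested.

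BID lies on chromosome 22 from 18216906 to 18257431 (minus strand) and encodes the protein that caspase-8 cleaves to link death receptors to mitochondria. BID had 60.9, 84.1 and 75.3 FPKM in iEV 1, 2 and 3, against 36.95, 60.3 and 59.6 FPKM in iGLI2 1, 2 and 3. The groups stood apart by a narrow gap, between iEV 1 and iGLI2 2. The mean was 73.4 ± 11.7 in iEV and 52.3 ± 13.3 FPKM in iGLI2 cells (n = 3 each, SD). This log2 fold change of -0.50 was as large as that of BBC3, but its interval ran from -1.05 to 0.04 (SE 0.22, limma adjusted p = 0.164). Without iGLI2 1 it was -0.28. The residual SD of BID was at percentile 92.6 of all genes tested and that of BAX at 90.4, so these 2 members were read with less precision than the rest.

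BIK, on chromosome 22 from 43506754 to 43525718 (plus strand), encodes a BH3-only protein of the endoplasmic reticulum. It had 12.3, 11.8 and 10.8 FPKM in iEV 1, 2 and 3, against 10.6, 9.24 and 9.66 FPKM in iGLI2 1, 2 and 3. The groups did not overlap, though iEV 3 and iGLI2 1 nearly met. The log2 fold change was -0.22 (SE 0.076, 95% interval -0.41 to -0.03, limma adjusted p = 0.0926). BCL2L11, on chromosome 2 from 111878491 to 111926022 (plus strand), encodes BIM, which ERK signalling marks for degradation and FOXO factors induce. BCL2L11 had 10.6, 8.75 and 8.40 FPKM in iEV 1, 2 and 3, against 11.1, 8.32 and 8.28 FPKM in iGLI2 1, 2 and 3. Replicate 1 was the highest library of each group and the means were equal to 3 digits, at 9.24 FPKM. Its log2 fold change was -0.01, with an interval of -0.34 to 0.33 (SE 0.14, limma adjusted p = 0.983) and a sign that turned under rescaling.

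**Figure D2:**
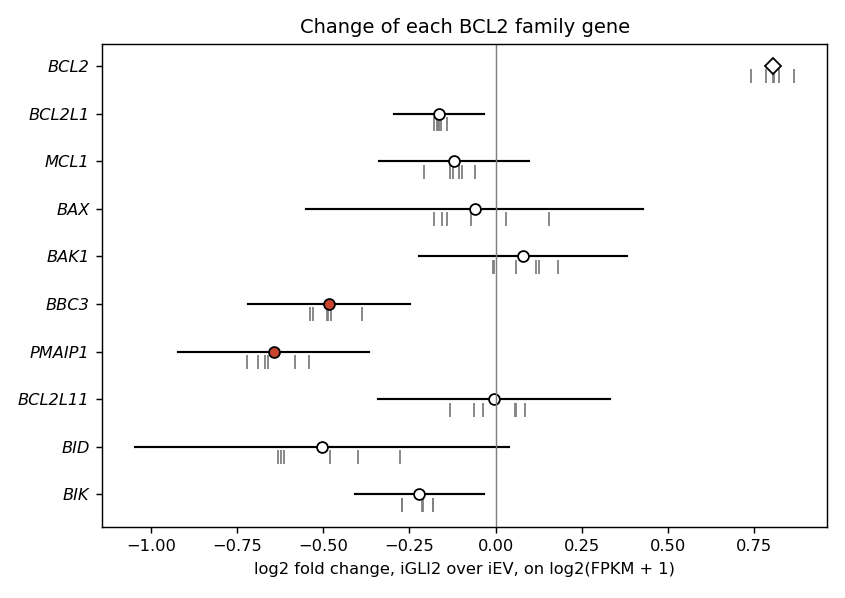
Log2 fold change of iGLI2 over iEV on log2(FPKM + 1) for the 9 members in the main test, with 95% intervals from limma and filled points for those past the threshold. BCL2, outside the main test, is drawn as an open diamond without an interval. Grey ticks mark the values after leaving out each library. Only the points of PMAIP1 (-0.64) and BBC3 (-0.48) are filled, and the interval of BID is the widest at -1.05 to 0.04.

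Of the 9 members in the main test, 2 passed the threshold (22.2%), both lower, against 21.9% of all genes tested in either direction, 10.1% higher and 11.8% lower. The share of the family was thus close to that of genes in general. The count was 0 without iEV 2 or without iEV 3, 1 without iEV 1 and 5 without iGLI2 1, which added BCL2L1, MCL1 and BIK. Groups that did not overlap were seen for 5 of the 9, BCL2L1, BBC3, PMAIP1, BID and BIK, all lower, against 42.0% of all genes in either direction and 22.8% lower. The median log2 fold change was -0.16 over the 9 members and -0.015 over all genes tested.

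By role, the summed level of the pro-survival genes was 243 ± 3.71 in iEV and 220 ± 8.75 FPKM in iGLI2 cells (n = 3 each, SD), and the groups did not overlap. After rescaling they did, at 237 ± 5.08 and 227 ± 20.3 FPKM. The sum of BAX and BAK1 was 67.5 ± 4.45 and 67.7 ± 7.75 FPKM, with overlapping groups under both scalings. For the 5 BH3-only genes the sum was 149 ± 14.3 in iEV and 106 ± 15.4 FPKM in iGLI2 cells, without overlap, and after rescaling 145 ± 10.9 and 109 ± 11.1 FPKM, again without overlap. Most of the BH3-only sum is BID and PMAIP1, whose groups did not overlap for either gene alone. No share over all genes was taken for sums.

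The order of the levels differed little between the lines. In iEV cells it ran BCL2L1, MCL1, BID, PMAIP1, BAX, BAK1, BIK, BCL2L11, BBC3 and BCL2 from high to low, where the ranges of MCL1 and BID and of PMAIP1 and BAX overlapped and all other neighbours were apart. In iGLI2 cells BAX stood above PMAIP1. There the ranges overlapped between BID and BAX, BAX and PMAIP1, PMAIP1 and BAK1, and BIK and BCL2L11.

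Ratios of 2 genes within a library depend little on how the libraries were scaled. They were taken on FPKM + 1, which keeps low values from dominating, for 7 pairs, chosen after the values were seen, and are given as a description. The ratio of BID to BAX was 1.54, 1.67 and 1.72 in iEV 1, 2 and 3, and 1.19, 1.25 and 1.19 in iGLI2 1, 2 and 3. The groups lay well apart, with a mean log2 difference of -0.44, although each gene alone varied widely and was lowest in replicate 1 of either line. The ratio of PMAIP1 to MCL1, the BH3-only gene to its main partner, was 0.607 ± 0.0581 in iEV and 0.428 ± 0.0904 in iGLI2 cells (n = 3 each, SD), also without overlap. For BBC3 to BCL2L1 it was 0.0394 ± 0.000741 and 0.0317 ± 0.00359, without overlap. BID, PMAIP1 and BBC3 each also stood apart alone, as did 42.0% of all genes tested in either direction. No such share was taken for ratios. The ratios of BCL2L11 to MCL1, BCL2L1 to BAX, BIK to BCL2L1 and BID to BCL2L1 overlapped between the lines. The last of these was 0.459 ± 0.0648 and 0.369 ± 0.0922.

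**Figure D3:**
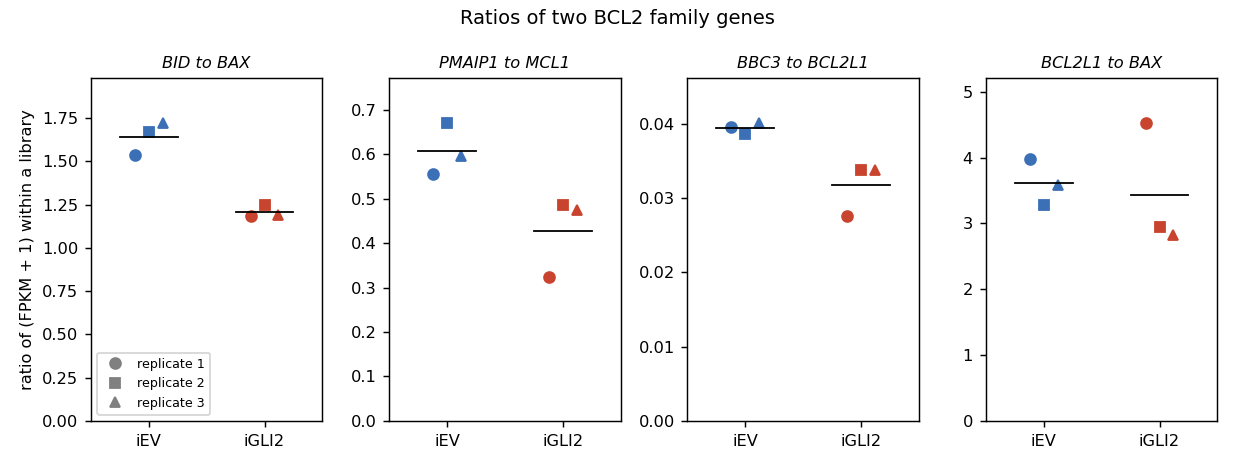
Ratio of (FPKM + 1) of 2 genes within each library, on axes that start at 0, for 4 of the pairs, with marker shapes for replicates 1 to 3 and a bar at the mean of 3 libraries. BID to BAX separates the lines at 1.54 to 1.72 against 1.19 to 1.25, whereas BCL2L1 to BAX overlaps.

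Further genes of apoptosis were read in 6 lists, of which 60 of 67 genes were tested. Of these, 10 (16.7%) passed the threshold, beside 21.9% of all genes. The count was 4 without iEV 2 or iGLI2 2, 6 without iEV 3, 5 without iGLI2 3 and 16 without iGLI2 1. Among other BCL2 family genes, 1 of 9 tested passed. It was BMF, a BH3-only gene linked to loss of attachment, which fell from 18.9 ± 3.28 to 12.9 ± 0.828 FPKM (n = 3 each, SD), and the log2 fold change was -0.50 (limma adjusted p = 0.0467). That call was lost on rescaling (limma adjusted p = 0.0573), where 2 others passed as higher, BOK (0.25, limma adjusted p = 0.0275) and BCL2L14 (0.26, limma adjusted p = 0.0445), both named after their values were seen. The median of the list was 0.01 before rescaling, which is the value read for BCL2L2. That gene shares a merged entry with BCL2L2-PABPN1 and PABPN1, so the value cannot be assigned to BCL2L2 alone. BCL2L2 is named for this reason only. Of 16 genes for the apoptosome, caspases and mitochondrial factors, 2 were lower and 0 higher, with a median of -0.14. They were VDAC1, a channel of the outer membrane (-0.32, limma adjusted p = 0.0106), and the protease gene HTRA2 (-0.20, limma adjusted p = 0.0407). Both calls were lost on rescaling, with limma adjusted p of 0.0553 and 0.218.

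Inhibitors of apoptosis act on caspases, and death receptors act from the cell surface. Of 6 inhibitor genes tested, 2 were lower and the median was 0.03. BIRC3, encoding cIAP2, a ubiquitin ligase of NF-κB signalling, had 14.3, 26.5 and 27.6 FPKM in iEV 1, 2 and 3, against 3.38, 4.498 and 3.90 FPKM in iGLI2 1, 2 and 3. The groups were far apart, and the log2 fold change was -2.22 (SE 0.26, limma adjusted p = 0.00294). BIRC5, which encodes survivin, changed by -0.27 on the log2 scale (limma adjusted p = 0.0191), a call lost on rescaling (limma adjusted p = 0.0954). Of 11 death receptor genes and their adaptors, 3 were lower, 0 were higher and the median was -0.13. After rescaling 4 passed, since CFLAR, which encodes the caspase-8 regulator cFLIP, then passed as higher (0.43, limma adjusted p = 0.00762, against 0.35 and 0.0504 before). TNFRSF10B, which encodes the signalling receptor DR5, fell from 58.8 ± 1.26 to 40.0 ± 1.80 FPKM (n = 3 each, SD), or -0.55 on the log2 scale (limma adjusted p = 0.00241). TNFRSF10A, encoding DR4, had -0.40 (limma adjusted p = 0.0221), and the decoy receptor gene TNFRSF10C had -0.89 (limma adjusted p = 0.00468). The other decoy receptor gene for TRAIL, TNFRSF10D, had 9.32 ± 2.86 and 13.2 ± 1.04 FPKM and did not pass (0.50, limma adjusted p = 0.156), and neither did the ligand gene TNFSF10 (0.50, limma adjusted p = 0.254). CFLAR, TNFRSF10D and TNFSF10 are named after their values were seen.

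Among 10 stress and FOXO regulators of BH3-only genes, 1 was higher and 1 lower, and the median was -0.04. FOXO3, encoding a factor that induces BIM and PUMA, rose from 6.01 ± 0.572 to 9.78 ± 0.725 FPKM (n = 3 each, SD). Its log2 fold change was 0.62 (limma adjusted p = 0.00566), beside log2 fold changes of -0.01 for BCL2L11 and -0.48 for BBC3. Whether these values are linked was not tested. TRIB3, a gene of the integrated stress response, fell from 59.1 ± 6.02 to 42.2 ± 4.997 FPKM (log2 fold change -0.48, limma adjusted p = 0.0347). In the same list ATF4 (-0.05, limma adjusted p = 0.898, and 0.03 after rescaling) and DDIT3 (0.21, limma adjusted p = 0.604) did not pass. Nor did CHAC1 (-0.69, limma adjusted p = 0.510), which had 1.23, 11.5 and 10.7 FPKM in iGLI2 1, 2 and 3. ATF4, DDIT3 and CHAC1 are named after their values were seen. Of 8 tested genes for the turnover of the MCL1, BIM and NOXA proteins, 0 passed by limma, 0 had an unadjusted p under 0.05, and the median was 0.01. Protein levels were not measured in these libraries.

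**Figure D4:**
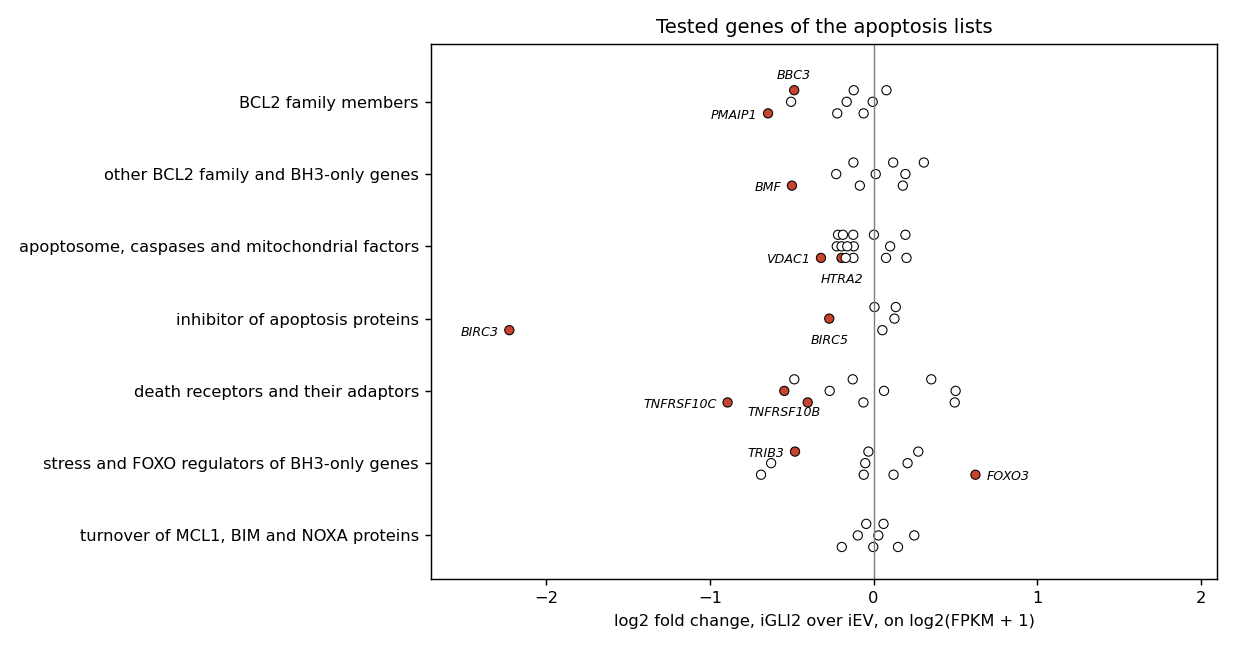
Log2 fold change of iGLI2 over iEV on log2(FPKM + 1) for the tested members and the 6 other lists, 1 point a gene, filled where limma passed the threshold. The genes named are those past the threshold that lie farthest from 0 within their list. BIRC3 (-2.22) and TNFRSF10C (-0.89) lie farther from 0 than any of the 9 members.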

How the data were processed

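RNA of YAPC cells was made into 6 TruSeq libraries, per the labels. The authors used Trimmomatic for trimming, TopHat2 for alignment (hg19) and Cuffdiff 2.1.1. The deposited table names no unit, and its values are read as FPKM, whose scaling is not given in the sources used here. Read depth is unknown, so no counting error is stated. Of 27024 entries, 25772 lie on primary chromosomes, and the highest entry of each name was kept (25442 genes, with 27 names written as dates). The test was limma 3.58.1 (R 4.3.3, intensity trend, two-sided) on log2(FPKM + 1), with the line as single term and a minimum mean of 1 FPKM. Fold changes of low genes are understated on this scale. P-values were adjusted by Benjamini-Hochberg over all genes tested (threshold 0.05). An exact permutation test of 3 against 3 cannot go below 0.1. On simulated data for this comparison (12493 genes), 180 of 200 changed genes were recovered, 98% of the 4-fold and 82% of the 2-fold ones, with 8 false calls. The changed genes were drawn only from those with a mean log2(FPKM + 1) above 3. Recovery at lower levels, where BBC3 lies, was not tested. Recovery below 2-fold was not tested either, and every member in the main test differed by less than that (log2 fold change -0.64 to 0.08).

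Members and lists were chosen with earlier results of these data known. Named are all members, GLI2, and from each list up to 4 genes past the threshold in each direction by smallest p, plus upstream regulators of called members. A further list is not reported here. Alternatives were a pseudocount of 0.1, upper quartile scaling, rescaling without small RNA genes, no filter, a minimum mean of 5 FPKM, a block for the replicate number or for the digit in the sample code, no intensity trend, and leaving out each library. Combinations of these were added after seeing the data. Loci are those of the table in hg19 (1-based). Exons come from the GRCh37 annotation, and sequences from GRCh37.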

Additional observations from a re-analysis of the deposited data

How the results depend on the processing

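Of 151 values of members under the alternatives, 139 kept the direction. For the 9 members in the main test, 111 of 134 kept both the direction and the side of the threshold. BCL2 was 0.80 (SE 0.069) with no filter, 2.26 with a pseudocount of 0.1, and 0.83 with no filter after rescaling. It passed limma's threshold in each unfiltered fit, and leaving out each library there gave 0.87, 0.74 and 0.80 (iEV 1, 2, 3) and 0.79, 0.81 and 0.82 (iGLI2 1, 2, 3). Without the small RNA genes BAX reversed to 0.016 and BCL2L11 to 0.066, and upper quartile scaling gave BCL2L11 0.0080. That rescaling raised the share of higher calls from 46.0% to 59.4% (3013 genes, median 0.055). A mean of at least 5 FPKM left 1 member called, since BBC3 lies below it.

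Whether same-numbered libraries form pairs is not given by the labels, and the values do not settle it. Deviations of same-numbered libraries correlated at 0.204, 0.0919 and 0.0276, all positive and the first the highest of any pair. However, iEV replicate 2 correlated best with iGLI2 replicate 3 (0.117). With the replicate number as a block, 3928 genes and 4 members were called, BID (-0.50, limma adjusted p = 0.0228) and BIK (-0.22, limma adjusted p = 0.0484) in addition. A block for the digit in the sample code gave 2084 genes and 2 members called. There BID (limma adjusted p = 0.198) and BIK (limma adjusted p = 0.120) did not pass. With no filter and the replicate block BCL2 was 0.80. With rescaling and the replicate block, 4892 genes and 18 other apoptosis genes were called, BID was -0.43, BAX 0.016 and BCL2L11 0.066, and 3 members were called, BIK (-0.15, limma adjusted p = 0.109) no longer among them.

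Leaving out each library gave 1223 genes called (without iEV replicate 2) to 3753 (without iGLI2 replicate 1). Members called ranged from 0, without iEV replicate 2 or 3, to 5, without iGLI2 replicate 1. Other apoptosis genes called ranged from 4 to 16. BCL2L1 ranged from -0.18 to -0.14, MCL1 from -0.21 to -0.060 and BIK from -0.27 to -0.18, each called only without iGLI2 replicate 1. BAX ranged from -0.18 to 0.15, BAK1 from -0.0074 to 0.18, BCL2L11 from -0.13 to 0.086, BBC3 from -0.54 to -0.39, PMAIP1 from -0.72 to -0.54 and BID from -0.63 to -0.28. The causes were not tested.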
